A study of Saccharomyces cerevisiae with 2 samples.

Results

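The genes of the proteasome were compared between yeast carrying wild-type ACS2 and yeast carrying the temperature-sensitive allele acs2-Ts1. The 36 members were chosen by gene symbol: 14 subunits of the 20S core, 10 of the base and 8 of the lid of the 19S regulatory particle, the assembly or core-binding factors UMP1, BLM10 and ECM29, and the transcription factor RPN4. All 36 were found among the 5449 yeast genes with a value, each with 1 probe set, and none of these probe sets has the kind of suffix that flags sequence shared with other transcripts.

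The proteasome is the protease that degrades ubiquitin-tagged proteins in the cytosol and nucleus. Its core is a barrel of stacked alpha and beta rings with the active sites inside, and the regulatory particle recognises tagged proteins, removes the ubiquitin, unfolds the chain and threads it into the core. In budding yeast most of these genes are activated by Rpn4, a short-lived factor that the proteasome itself degrades, so that its level is known to rise when proteasome capacity is short. Heat and misfolded proteins are known to raise the demand for this machinery.

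Both strains derive from BY4741 (MATa) and share the alleles his3delta1, leu2delta0, met15delta0 and ura3delta0. In both, chromosomal ACS2 is replaced by HygMX, and a centromeric URA3 plasmid supplies the gene: pHT112-1 carries ACS2 and pHT215 carries acs2-Ts1. Acs2 is an enzyme that joins acetate to coenzyme A outside the mitochondria. Cultures in YPD, a rich medium, were held at 37 °C for 60 min, and total RNA was hybridised to Affymetrix arrays. Each group is 1 deposited sample, the authors' mean of 2 arrays. Since WT stands in the title of either sample, the grouping rests on the genotype field. The ACS2 probe set read 10257 and 12426, which does not check the labels, because the plasmid supplies the gene in both.

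With 1 sample per group there is no replicate and no test, and "higher" and "lower" below describe these samples. An impaired enzyme, the different plasmids and a difference between the cultures cannot be told apart, nor can a change in every cell and a larger change in some cells. As a technical yardstick, the log2 ratios of the 27 hybridization controls, which are bacterial or phage sequences, had an SD of 0.17, and the pooled SD between probe sets of a gene was 0.40 over the 34 genes that have several above background. Neither measures the spread between cultures. The authors normalized to controls that were not named, and if these 27 were among them, the SD of 0.17 may be too small. The pooled SD was not limited to probe sets without a suffix or as bright as those of the members. All intensities are the authors' normalized values, every ratio is acs2-Ts1 over wild type on the log2 scale, and intensities of different genes are not compared, since probe sets differ in brightness. In each sentence with a pair of intensities the wild-type value comes before that of acs2-Ts1. Every member was bright, at no less than 5.98 times the background limit of its sample.

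As deposited, transcripts of 35 of the 36 members were lower in acs2-Ts1 and RPN4 alone was higher, whereas relative to the all-gene median 30 of 36 were higher. The median log2 ratio of the 36 members was -0.81, a 1.75-fold lower level, against -1.12 for all genes. Lower values were the rule across the genome, with 86.4% of all genes below wild type, so the direction of the members is close to the background. At least 2-fold lower were 13 members (36.1%), against 55.9% of all genes. None of the 36 was at least 2-fold higher, against 3.67% of all genes. Of all genes, 50.0% lie above their own median by construction, against the 30 of 36 members. On the authors' scaling to controls, proteasome transcripts were thus mostly lower than in wild type, and less so than the typical transcript. With the trend with brightness removed this difference from the all-gene median turned from 0.32 to -0.094.

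**Figure D1:**
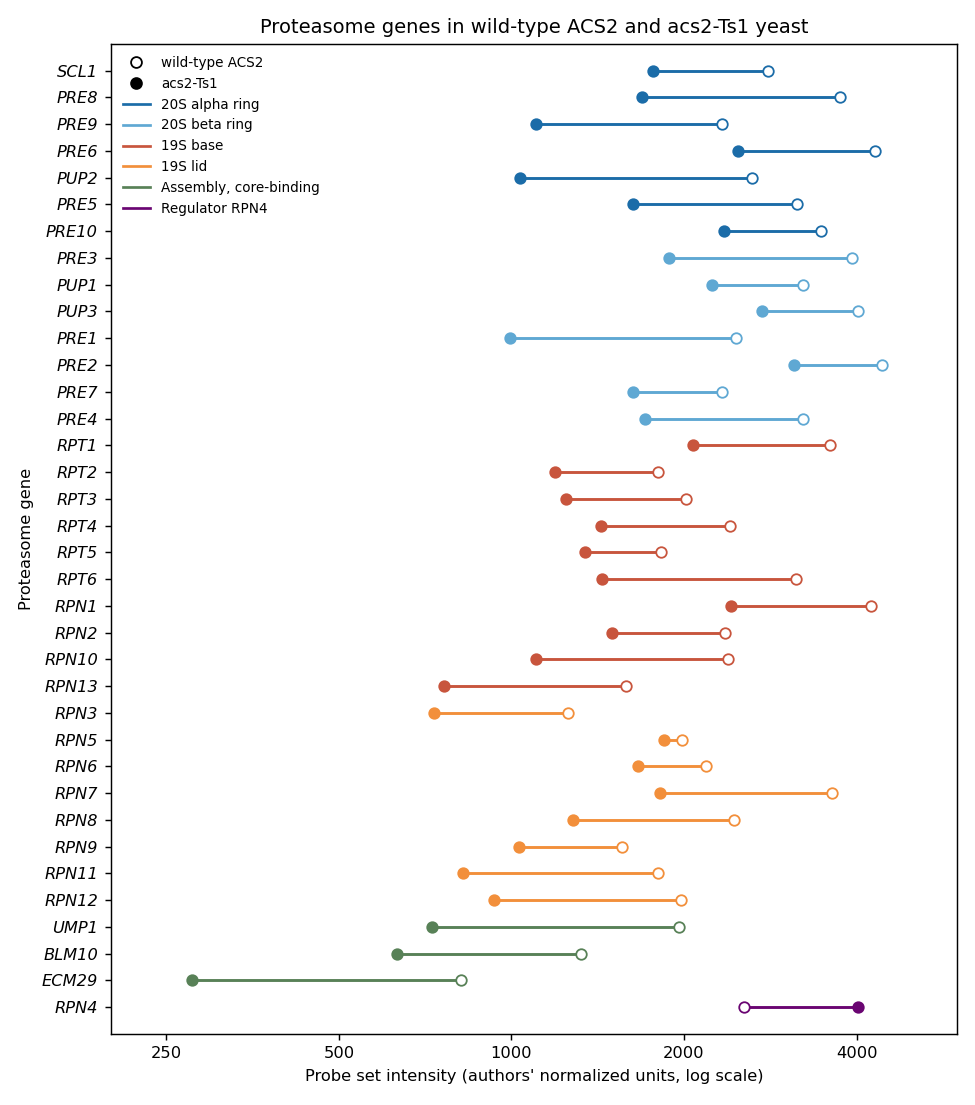
Intensity of each proteasome gene (x axis, authors' normalized units, log scale) in wild-type ACS2 (open circles) and acs2-Ts1 (filled circles), 1 sample per strain, coloured by subcomplex. The filled circle lies to the left in 35 genes and to the right in RPN4, and the gap is smallest for RPN5.

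RPN4 (YDL020C), the activator of the proteasome genes, had an intensity of 2541 with wild-type ACS2 and of 4025 with acs2-Ts1. It was 1.58-fold higher, and its log2 ratio of 0.66 is at percentile 94.6 of all genes and exceeds the SD of the hybridization controls. It lay 1.48 above the median of the other 35 members and 0.77 above the highest of them, RPN5. As deposited, the activator and the genes it is known to activate differed in opposite directions, while relative to the all-gene median 29 of the 35 other members were also above 0. The direction of RPN4 was the same in all scalings tried, at 1.79 relative to the all-gene median and 1.17 with the trend with brightness removed. The array measures the transcript, and the amount of Rpn4 protein was not measured.

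Of 7 genes for factors known to act on RPN4 or its product, 7 were below wild type as deposited, against 86.4% of all genes, and 2 (28.6%) were at least 2-fold lower, against 55.9%. Their median was -0.82 as deposited and 0.41 with the trend with brightness removed, and 6 of the 7 lay above the all-gene median. Among the transcription factors known to bind the RPN4 promoter, YAP1, of the oxidative stress response, read 758 and 734, and HSF1, the heat shock factor, read 639 and 556. PDR1 and PDR3, the regulators of multidrug resistance, differed from each other, at 1246 and 591 for PDR1 and at 412 and 287 for PDR3. UBR2, the ubiquitin ligase that marks Rpn4 for degradation, went from 336 to 53.4, close to the background limit of 46.3. RAD6, the ubiquitin-conjugating enzyme that works with Ubr2, was 1.98-fold lower. The deposited log2 ratio of YAP1, -0.046, is within the SD of the hybridization controls. With the trend removed the 7 genes did not keep together. YAP1 at 1.05, HSF1 at 0.95 and PDR3 at 0.80 were the highest of them, against 1.17 for RPN4. RAD6 was at 0.12, PDR1 at -0.019 and UBR2 lowest of the 7, so the factors known to bind the RPN4 promoter differed among themselves.

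The alpha ring closes the ends of the core and forms the gate through which substrates enter. As deposited its 7 genes were all lower, at log2 ratios from -1.34 to -0.56 with a median of -0.95. At least 2-fold lower were 3 of the 7 (42.9%), against 55.9% of all genes. PUP2 (YGR253C) was lowest, at 2628 and 1035, 2.54-fold lower. PRE8 (YML092C) read 3745 and 1693, 2.21-fold lower. PRE9 (YGR135W), the alpha subunit that yeast can live without, read 2327 and 1105, 2.11-fold lower. As deposited these 3 genes form the lower end of the ring. With the brightness trend removed PRE9 at -0.23 lay above PRE6 at -0.30 and PRE5 at -0.27.

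The other 4 alpha genes were closer to wild type as deposited. PRE5 (YMR314W) read 3155 and 1629.7, and PRE6 (YOL038W) read 4316 and 2483. SCL1 (YGL011C) was 1.59-fold lower at 2806 and 1769. PRE10 (YOR362C) had the highest ratio of the ring, -0.56, from intensities of 3469 and 2352. From PUP2 to PRE10 the log2 ratios spanned 0.78, about as far as the 0.80 spanned by the beta ring.

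The beta ring carries the active sites of the protease. As deposited its 7 genes were all lower, with log2 ratios from -1.31 to -0.51 and a median of -0.55. Of these, 4 lay between -0.55 and -0.51 and 3 were lower. The genes for the 3 catalytic subunits did not keep together. PRE2 (YPR103W), with the chymotrypsin-like site, read 4431 and 3108, 1.43-fold lower. PUP1 (YOR157C), with the trypsin-like site, read 3230.0 and 2234, 1.45-fold lower. PRE3 (YJL001W), with the caspase-like site, read 3934 and 1884, 2.09-fold lower. The log2 ratio of PRE3 was thus -1.06, against -0.51 for PRE2 and -0.53 for PUP1.

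Among the beta subunits without an active site, PRE1 (YER012W) was lowest, at 2462 and 993, 2.48-fold lower. PRE4 (YFR050C) followed at 3222 and 1712, 1.88-fold lower. PUP3 (YER094C) and PRE7 (YBL041W) were 1.47-fold and 1.43-fold lower, PUP3 at 4019 and 2738 and PRE7 at 2328 and 1631. Active and inactive subunits were therefore found among the higher and the lower genes of the ring. Over the whole core of 14 genes the median was -0.86, with 5 genes (35.7%) at least 2-fold lower, against 55.9% of all genes.

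The base of the regulatory particle holds the ring of 6 ATPases that unfold substrates. All 6 RPT genes were lower as deposited, with a median of -0.72. At least 2-fold lower was 1 of them (16.7%), against 55.9% of all genes. That gene, RPT6 (YGL048C), read 3131 and 1438, 2.18-fold lower. The highest ratio was that of RPT5 (YOR117W), -0.44, at 1822 and 1342. As deposited the remaining ATPases lay close together, RPT1 (YKL145W) at -0.79, RPT4 (YOR259C) at -0.75, RPT3 (YDR394W) at -0.70 and RPT2 (YDL007W) at -0.60. With the brightness trend removed they spread from -0.20 for RPT1 to 0.28 for RPT2. ATPases are known to assemble as neighbouring pairs. Within these pairs the deposited log2 ratios differed by 0.19 for RPT1 and RPT2, 0.31 for RPT4 and RPT5 and 0.43 for RPT3 and RPT6. That order changed with the brightness trend removed, where RPT4 at 0.027 and RPT5 at 0.41 were the closest pair. The pooled SD between probe sets of a gene is for single ratios, and a difference of 2 ratios varies more, so it does not judge these differences.

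The scaffold and receptor genes of the base were also lower. RPN1 (YHR027C), a scaffold that docks ubiquitin and the shuttle receptors, read 4236 and 2412, and RPN2 (YIL075C), the scaffold that holds Rpn13, read 2356 and 1497. The ubiquitin receptor RPN10 (YHR200W) was 2.16-fold lower at 2385 and 1104, and the receptor RPN13 (YLR421C) was 2.08-fold lower at 1584 and 762. As deposited the log2 ratios were -1.11 for RPN10, -1.06 for RPN13, -0.81 for RPN1 and -0.65 for RPN2, an order that changed with the brightness trend removed, where RPN1 at -0.31 was the lowest of the 4. The whole base of 10 genes had a median of -0.77 and 3 genes (30%) at least 2-fold lower, against 55.9% of all genes.

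The lid cuts ubiquitin chains from substrates and clamps the base to the core. Its 8 genes spanned a wider range than those of the other subcomplexes, from -1.13 to -0.10, with a median of -0.85. RPN11 (YFR004W), the deubiquitinating enzyme, read 1801 and 825, 2.18-fold lower. RPN8 (YOR261C), its structural partner, read 2447 and 1283, 1.91-fold lower. Enzyme and partner differed by 0.20 in log2 ratio, a difference that was not tested.

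The remaining 6 lid genes encode scaffold subunits with a shared fold, the PCI domain. RPN5 (YDL147W) was nearest to wild type of all 36 members, at 1985 and 1848, and its log2 ratio of -0.10 is the only member's value within the SD of the hybridization controls. RPN6 (YDL097C), which links the lid to the alpha ring, read 2183 and 1663, 1.31-fold lower. RPN9 (YDR427W) read 1561 and 1029, and RPN3 (YER021W) read 1254 and 734. RPN12 (YFR052W), known to join the lid last, was 2.11-fold lower at 1973 and 933. RPN7 (YPR108W) read 3624 and 1817 and was 1.99-fold lower, just short of the 2-fold line, while the member just past it, RPN13, was 2.08-fold lower. Lid genes were thus found at the upper end of the members as well as near the 2-fold line.

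The ranges of the alpha ring, beta ring, base and lid overlapped, and their medians lay between -0.95 and -0.55. As deposited, the widest gap between medians, that of the alpha and beta rings, exceeds the SD of the genes within either ring (0.28 and 0.32). All 7 alpha genes and all 7 beta genes lay between -1.34 and -0.51. With the brightness trend removed, the medians of the alpha and beta rings were -0.27 and -0.079. That gap is smaller than the SD within either ring on this scale (0.22 and 0.26). The base median was then -0.022 and the lid median 0.060, so the widest gap was that of the alpha ring and the lid. This widest gap exceeds the SD within the alpha ring (0.22) but not that within the lid (0.36). No difference between subcomplexes was tested.

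The assembly and core-binding factors included the lowest deposited ratios of all members. ECM29 (YHL030W), a large protein that holds core and regulatory particle together, read 815 and 277, 2.94-fold lower and the lowest ratio of the 36 members. UMP1 (YBR173C), the chaperone that is enclosed in the maturing core and degraded when it is complete, read 1961 and 726, 2.70-fold lower. BLM10 (YFL007W), an activator that caps the core in place of the regulatory particle, read 1324 and 632, 2.09-fold lower. As deposited all 3 were at least 2-fold lower, as were 55.9% of all genes. On the same values, ECM29 and UMP1 lay below all 32 subunits of the core, base and lid. That order was lost with the brightness trend removed, where ECM29 was at -0.34 and UMP1 at -0.48, above PRE8 and PUP2.

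Dedicated assembly chaperones, which bind unfinished rings and leave the mature particle, were lower still. All 8 measured genes were lower, against 86.4% of all genes, and 7 (87.5%) were at least 2-fold lower, against 55.9%. Their median was -1.74, which is 0.61 below the all-gene median. NAS2, a chaperone of the base, was 5.73-fold lower at 653 and 114. HSM3, also for the base, read 216 and 43.5, the latter below the background limit, and RPN14 read 406 and 108. Among the chaperones of the alpha ring, POC4 was 1.71-fold, ADD66 2.07-fold and PBA1 2.39-fold lower, while IRC25, the partner of POC4, named after its value was seen, was 3.64-fold lower. The chaperone probe sets were dimmer than those of the members, with a median wild-type intensity of 664 against 2428, and ratios were lower at such brightness in all genes. With that trend removed the chaperone median was -0.45, against -0.11 for the 36 members. The part of brightness in this difference was not tested further.

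**Figure D2:**
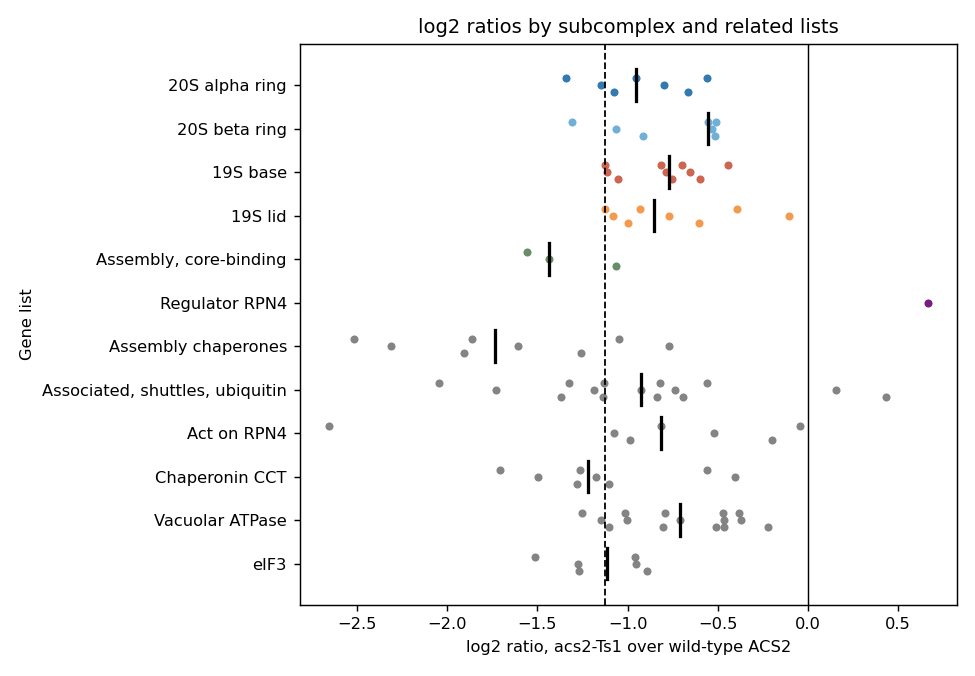
log2 ratio of each gene (points) by subcomplex and related list, with the list median as a vertical bar, the all-gene median of -1.12 as a dashed line and 0 as a solid line. RPN4 lies to the right of 0, the medians of the core, base and lid lie between the lines, and most assembly chaperones lie to the left of the dashed line.

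Transcripts for proteins that work beside the proteasome were lower in 13 of 15 cases and at least 2-fold lower in 7 (46.7%), near the shares of 86.4% and 55.9% of all genes, with a median of -0.92. SEM1, the small lid subunit outside the member list, named here after its value was seen, read 1821 and 959, a log2 ratio of -0.92 within the range of the lid. Of the shuttle receptors that carry tagged proteins to the particle, RAD23 was 2.59-fold lower, and DDI1 read 262 and 63.5. CIC1, a proteasome-binding protein also known from ribosome assembly, was 3.31-fold lower. CDC48, the ATPase that pulls tagged proteins out of complexes, was 1.47-fold lower at 8088 and 5492. The exceptions to the lower values were UBI4, the stress-induced polyubiquitin gene, at 3761 and 5075, and SPG5, for a proteasome regulator of stationary phase, at 2437 and 2717. UBI4 was 1.35-fold higher, a log2 ratio of 0.43.

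Other complexes of many subunits gave similar or lower values. Their counts of genes at least 2-fold lower stand beside 55.9% of all genes. The vacuolar proton ATPase had a median of -0.71 over 15 genes, 5 of them at least 2-fold lower, from VMA6 at -1.26 to VMA13 at -0.22. The translation initiation factor eIF3, some of whose subunits share a fold with lid subunits, had a median of -1.11 over 6 genes. Of these, 3 were at least 2-fold lower, with HCR1 lowest at -1.52. The cytosolic chaperonin CCT, which folds actin and tubulin, had a median of -1.22 over 8 genes, 6 of them at least 2-fold lower, from TCP1 at -1.71 to CCT7 at -0.41. As deposited, the proteasome median of -0.81 lay between those of the vacuolar ATPase and eIF3. With the brightness trend removed the proteasome median was -0.11, above -0.23 for the vacuolar ATPase, -0.34 for CCT and -0.35 for eIF3. No difference between these complexes was tested, as each sample is the only one of its strain.

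Ratios depended on brightness across the whole array, and the members are bright. Over the 36 members the log2 ratio and the mean log2 intensity had a Pearson r of 0.47, and over the 35 without RPN4 it was 0.44. Over all 5449 genes r was 0.30. These are descriptions across genes of the same arrays, where intensity enters both measures, and genes are not replicates. With a lowess curve of ratio on brightness removed, the median of the members was -0.11, close to the -0.01 of all genes. Of the 36 members, 27 then lay within the pooled SD between probe sets of 0. The share of all genes in that window was not computed, so this count alone does not set the members apart. On this scale the members did not lie above the typical gene. RPN4 at 1.17 and RPN5 at 0.66 had the highest values on this scale, and PRE8 and PUP2 had the lowest, at -0.52 and -0.51.

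**Figure D3:**
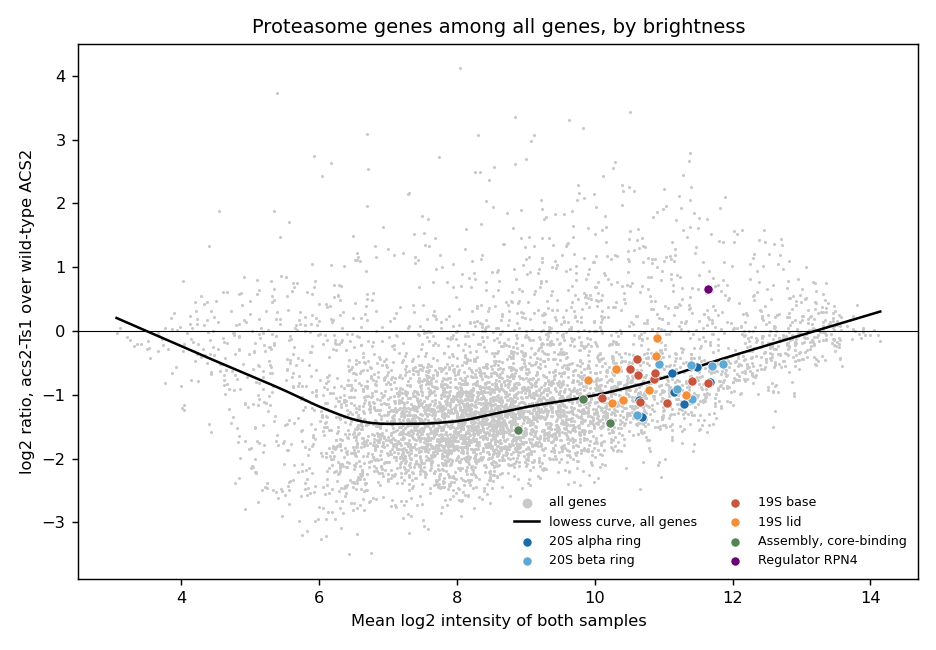
log2 ratio of all 5449 genes (grey) against the mean log2 intensity of both samples, with a lowess curve over all genes (black) and the proteasome genes coloured by subcomplex. The subunits scatter around the curve, and RPN4 lies 1.17 above it.

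The log2 ratios of the members had an SD of 0.41 (n = 36 genes), or 0.32 without RPN4 (n = 35 genes), against 0.92 for all genes. The vacuolar ATPase and eIF3 had SDs of 0.33 and 0.25, similar to or smaller than that of the proteasome. With the brightness trend removed, the SDs were 0.36 for the 36 members, 0.30 without RPN4 and 0.83 for all genes. The SD of 0.32 among the 35 genes is below the pooled SD of 0.40 between probe sets of the same gene. That pooled SD was not limited to probe sets like those of the members and may be too wide for them. Of the 36 members, 29 lay within this pooled SD of the member median. That median comes from the same genes, and the matching share of all genes was not computed, so the count does not measure grouping.

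**Figure D4:**
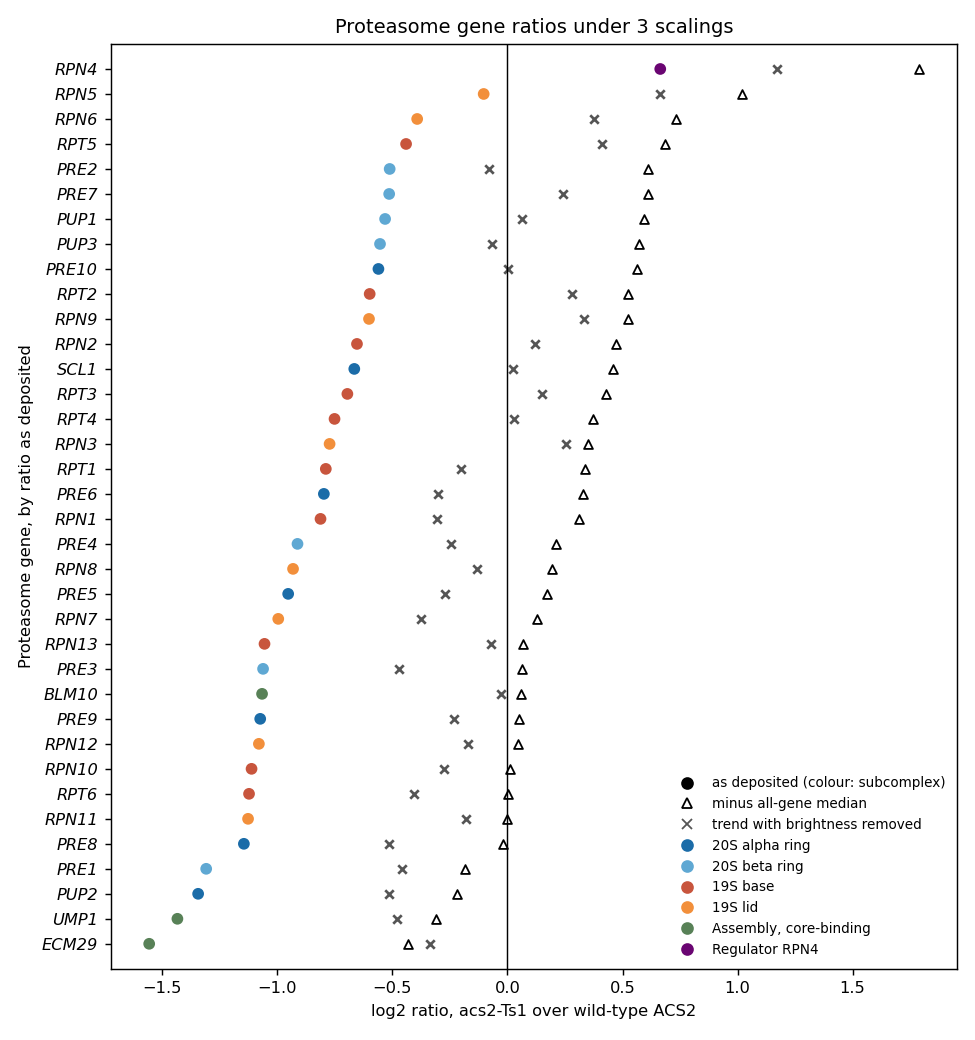
log2 ratio of each proteasome gene as deposited (circles, coloured by subcomplex), minus the all-gene median (triangles) and with the brightness trend removed (crosses), sorted by the deposited ratio. RPN4 is to the right of 0 on all 3 scales, whereas 35 other genes are to the left as deposited, 6 to the left after centring and 22 to the left after trend removal.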

How the data were processed

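The authors background-corrected 4 arrays with RMA, averaged 2 arrays for each strain and fitted a lowess curve to controls to normalize the means, per the labels and the design text, since expression differed globally. The deposited values are linear probe set intensities. The choice of controls and any software version were not given in the sources used here. An error in this curve would shift genes of similar brightness together, and bright and dim genes by different amounts.

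Probe sets were named by the platform annotation and matched by gene number to RefSeq genes of the R64 assembly, giving 5449 genes from 5498 of 10928 probe sets. For a gene with several, the brightest of those lacking a suffix letter was used. The background limit is the 95th percentile of 1746 probe sets for genes not of this species, at 49.1 (wild type) and 46.3 (acs2-Ts1). Ratios were taken without a pseudocount, and the computation of ratio and trend was tested on simulated data. The number of arrays limits the precision. Named genes are all members and up to 3 genes at each end of each other list. Members and lists were chosen with earlier results of these data known. A planned motif search of promoters was not run, as no sequence was used here. Alternatives covered scaling, probe set choice, pseudocount, background, a filter on dim genes, the trend with brightness (span 0.30) and the fold threshold. Python 3.11.15, pandas 2.3.3 and statsmodels 0.14.6 were used.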

Additional observations from a re-analysis of the deposited data

How the results depend on the processing

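Over 7 summary values and 10 alternatives, 44 of 60 recomputed values kept their direction and differed by less than the SD of the hybridization controls (medians) or by at most 1.5 times (counts). Settings that could not move the members are part of these 60. Using all probe sets or none with a suffix could not change a single ratio, since every member has 1 probe set without a suffix. Omitting dim genes removed no member. Centring on bright controls subtracted their median of -0.024 from every ratio alike. Adding 32 and subtracting background changed none of the 36 single ratios by more than that SD. With the all-gene median set to 0, the member median became 0.32 and the medians of core, base and lid 0.27, 0.35 and 0.27. No member (0) then passed the 2-fold line downward and 2 passed it upward, RPN4 and RPN5, and the eIF3 median became 0.011. Members that were at least 2-fold lower and then lay just above 0 were BLM10 (0.058), PRE3 (0.062), PRE9 (0.050), RPN10 (0.012), RPN12 (0.044), RPN13 (0.068) and RPT6 (0.0012). With the brightness trend removed, the medians were -0.11 for members, -0.24 for core, -0.022 for base and 0.060 for lid, the difference from the all-gene median was -0.094, 0 members lay 2-fold below and 1, RPN4, lay 2-fold above. These shifts follow from the construction of both settings. RPN4 stayed 1.30 to 1.49 above the median of the other members in all alternatives. At 1.5-fold, 27 members were lower and 1 was higher, and at 3-fold 0 were lower. All-gene shares were not computed for these thresholds or for the other alternatives. No paired analysis was possible because each group is 1 sample.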

Other observations

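Ratios of members on the same chromosome lay close together on some chromosomes and not on others, as seen after the values were known and not tested. On chromosome II, PRE7 was at -0.51 and UMP1 at -1.43, and on chromosome VII, SCL1 was at -0.67 and PUP2 at -1.34. The 6 members on chromosome IV, RPN4, RPN5, RPN6, RPN9, RPT2 and RPT3, had log2 ratios from -0.70 to 0.66, all above the member median of -0.81. Their SD of 0.51 was larger than the 0.41 of all 36 members. The median of all 705 measured genes on that chromosome was -1.15, close to the -1.12 of all genes. The 4 members on chromosome VI, PRE4, RPN11, RPN12 and BLM10, had ratios from -1.13 to -0.91, against a chromosome median of -1.07 over 117 genes. The 6 members on chromosome XV, PRE6, PRE10, PUP1, RPT4, RPT5 and RPN8, had ratios from -0.93 to -0.44, against a chromosome median of -1.05 over 512 genes. At least 2-fold lower were 0 of these 6, against 52.9% of all genes on that chromosome.

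Some members lie almost side by side in gene order. PRE4 and RPN12 on chromosome VI are separated by 1 protein-coding gene and had ratios of -0.91 and -1.08. RPT4 and RPN8 on chromosome XV are also separated by 1 gene and had ratios of -0.75 and -0.93. PRE2 and RPN7 on chromosome XVI, with 4 genes between them, were 1.43-fold and 1.99-fold lower.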
